A study of Mus musculus with 26 samples.

Results

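RNA polymerase II (Pol II) transcribes mRNA genes and RNA polymerase III (Pol III) transcribes tRNAs, 5S rRNA and other short RNAs. The genes described here encode the subunits of both enzymes, the general transcription factors that place them at promoters (TFIIA to TFIIH for Pol II, TFIIIA and TFIIIC for Pol III), the TBP-associated factors or TAFs, and Mediator, the complex that carries signals from bound activators to Pol II. Members were chosen by symbol alone, as every listed gene whose name began with Polr2, Polr3, Med or Taf followed by a digit, Gtf2 or Gtf3. The rule found 90 members among the 10104 genes listed in mouse oligodendrocyte progenitor cells (OPCs) or oligodendrocytes (OLs). Of these, 80 stood among 8530 genes listed in OPCs, 89 among 9751 listed in OLs and 79 among the 8177 listed in both.

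The Pol II machinery is best known as the platform on which the lineage factors of OLs act, and Mediator subunits and TAFs contact such factors directly. Pol III is of separate interest in myelin, because inherited variants in its large subunits POLR3A and POLR3B, and in POLR3K and the shared subunit POLR1C, cause hypomyelinating leukodystrophy. The symbols also hold genes of other complexes. Taf1b, Taf1c and Taf1d encode TAFs of the Pol I factor SL1, Taf5l and Taf6l encode TAF-like subunits of the SAGA acetyltransferase, Taf15 encodes an RNA-binding protein of the FET family, and Gtf2i, Gtf2ird1 and Gtf2ird2 encode TFII-I proteins.

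OPCs of the 129S/SvEv strain had been derived from epiblast stem cells and grown with bFGF and PDGFA, and OLs had been obtained from such OPCs in medium with thyroid hormone (T3), noggin, IGF-1, cyclic AMP and NT3. Both cell types were fed 5-ethynyl uridine (5-EU), a uridine analog that enters new RNA, for 24 h, the OLs from 40 h of differentiation on, and 5-EU was then replaced by uridine. Labelled RNA was pulled down and sequenced after 0, 1, 2, 4 and 6 h of this chase in 3 OPC and 2 OL replicates. The comparison of OLs with OPCs asked whether mRNA levels and decay differ once the cells differentiate. Levels are FPKM (fragments mapped to a transcript, per length of the transcript and per mapped fragments of the library) as deposited, 1 transcript per gene, and the read depth behind them is unknown. All OPCs trace to pluripotent cells in culture, and the study describes differentiated cultures as a mixture in which some OPCs remain. The study calls the replicates biological and the OLs counterparts of 2 of the 3 OPC replicates, without saying which numbers belong together.

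The labels were checked with marker genes. Mbp, which encodes myelin basic protein, had 3.99, 1.19 and 2.28 FPKM at 0 h in OPC replicates 1 to 3 and 3213 and 1295 FPKM in OL replicates 1 and 2. Cnp, a myelin enzyme gene, had 51.1, 36.4 and 43.2 FPKM in OPCs and 1399 and 748 FPKM in OLs, and the myelin genes Mog, Mag and Mobp were listed in OLs only. The summed level of 4 progenitor markers ranged from 212 to 291 FPKM in OPCs and from 103 to 139 FPKM in OLs. The lower sum came from Ccnd1, a cyclin of dividing cells, with 124 FPKM in the lowest OPC replicate and 31.3 and 24.3 FPKM in OLs, the 1 marker of the 4 called lower. Pdgfra, the PDGF receptor of OPCs, was called higher in OLs (log2 change 1.70, limma adjusted p = 0.012), and Cspg4 and Mki67 did not pass. Of the transcription factors of the lineage Olig1 (-0.88, adjusted p = 0.019) and Olig2 (-0.67, adjusted p = 0.044) were lower in OLs and Sox10 was higher (3.07, adjusted p = 0.0073). Summed astrocyte markers, 1 of 4 listed in OPCs and 3 of 4 in OLs, ranged from 179 to 224 FPKM in OPCs and from 104 to 165 FPKM in OLs, nearly all of it from the glutamate transporter gene Slc1a3. Gfap, the filament gene of astrocytes, was listed in OLs only, at 6.86 and 8.12 FPKM, as was Aldh1l1, at 1.72 and 2.44 FPKM. Of 4 neuronal markers only Tubb3 was listed, at 13.2 to 17.4 FPKM in OPCs and 24.5 to 24.6 FPKM in OLs, and no marker of microglia or epiblast stem cells was listed. In these bulk samples, fewer cells of a type and less RNA per cell cannot be told apart, and the part of cell mixture in the differences below was not tested.

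At 0 h the 80 members listed in OPCs held 0.585%, 0.622% and 0.586% of the summed FPKM of OPC replicates 1 to 3. The 89 listed in OLs held 0.719% and 0.696% in OL replicates 1 and 2. Summed FPKM was 432287, 391712 and 405296 in OPCs and lower in OLs, at 350563 and 342224, over different gene lists. The shares therefore do not compare the level of the members. Among the 79 genes listed in both cell types the mean level ran from 2.74 to 225 FPKM in OPCs, with a median of 22.2, and from 2.58 to 268 FPKM in OLs, with a median of 20.4. The order of the members was similar in both cell types (Spearman's rho 0.80 across 79 genes, against 0.79 across all 8177). Genes are not independent replicates, and the value is a description. Highest in both was Polr2f, a small subunit that Pol I, II and III share, with 249, 217 and 210 FPKM in OPC replicates 1 to 3 and 278 and 259 FPKM in OL replicates 1 and 2.

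Pol III subunits spanned a wide range of levels per length. Polr3k, the small subunit that acts in termination, had a mean of 59.1 ± 11.1 FPKM (SD, n = 3) in OPCs and of 48.8 ± 21.3 FPKM (SD, n = 2) in OLs. The catalytic large subunits were far lower. Polr3a had 5.30, 10.8 and 8.22 FPKM in OPC replicates 1 to 3 and 7.54 and 10.6 FPKM in OL replicates 1 and 2, and Polr3b had 4.99, 9.34 and 6.19 FPKM and 5.24 and 6.92 FPKM in the same order. Polr3gl was lowest in OPCs (2.74 ± 0.485 FPKM), and from there the order of means was Polr3d, Polr3b, Polr3a, Polr3f, Polr3e and Polr3c (13.4 ± 2.93 FPKM), in which neighbours overlapped between replicates. The corresponding large subunits of Pol II were higher. Polr2a, which carries the C-terminal repeat domain, had 43.9, 48.6 and 55.0 FPKM in OPCs and 36.3 and 39.9 FPKM in OLs, and Polr2b, its partner in the active site, had 34.9, 43.2 and 38.4 FPKM and 41.8 and 37.1 FPKM.

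At 0 h, 16 of the 79 members differed between OLs and OPCs (limma on log2(FPKM + 1), adjusted p under 0.05 over all 8177 genes), 20.3% of the members against 29.6% of all genes. The 6 that were higher in OLs were 7.59% of the members, against 13.8% of all genes tested. The 10 that were lower in OLs were 12.7%, against 15.8% of all genes. The median log2 change was -0.04 for members and -0.01 for all genes. Read against these shares, the number of calls is not a result about the members as a group. Groups did not overlap for 15 members higher in OLs (28.0% of all genes) and for 23 lower in OLs (31.4% of all genes). Fold changes on this scale understate the change of low genes.

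The 6 members that rose belonged to the shared subunits, TFIIH, TFIID, Mediator and TFIIB. Polr2l (chromosome 7, 141471860 to 141475132, minus strand, GRCm38) encodes a small subunit common to Pol I, II and III. Its levels were 27.7, 14.3 and 14.8 FPKM in OPC replicates 1 to 3 and 92.1 and 57.7 FPKM in OL replicates 1 and 2 (log2 change 1.96, SE 0.34, limma adjusted p = 0.0050). Gtf2h1, the p62 subunit of the TFIIH core, had 7.72, 17.1 and 9.86 FPKM in OPCs and 31.5 and 35.8 FPKM in OLs (log2 change 1.53, SE 0.32). Taf13, a histone-fold TAF that pairs with Taf11 in TFIID, had 16.5, 9.48 and 10.7 FPKM in OPCs and 32.3 and 27.0 FPKM in OLs (1.24, SE 0.27). In each of these genes both OL samples stood above all OPC samples. Med20, a Mediator head subunit, had 16.6, 10.2 and 11.3 FPKM against 27.8 and 31.4 FPKM (1.18, SE 0.26). Gtf2b, which encodes TFIIB, the factor that bridges TBP and Pol II, had 6.86, 10.8 and 5.56 FPKM against 19.3 and 16.0 FPKM (1.13, SE 0.29). Taf7, a TFIID subunit that contacts Taf1, had the smallest called rise, from 4.20, 6.05 and 5.00 FPKM to 9.30 and 12.6 FPKM (0.97, SE 0.24). For these 5 genes the adjusted p lay between 0.010 and 0.022.

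The 10 members that fell included 2 Mediator subunits outside the kinase module, Med12 within it, both SAGA TAF-like genes and 3 genes of the Pol III factors. Med25 (chromosome 7, 44879384 to 44892712), whose product is a docking surface for activators in the Mediator tail, had 55.0, 41.6 and 37.6 FPKM in OPC replicates 1 to 3 and 14.3 and 22.1 FPKM in OL replicates 1 and 2 (log2 change -1.26, SE 0.27, limma adjusted p = 0.012). Taf6, a histone-fold TAF of TFIID, had 23.5, 17.6 and 27.6 FPKM in OPCs and 11.3 and 7.87 FPKM in OLs (-1.17, SE 0.27). Its SAGA paralogue Taf6l fell too, from 17.2, 12.7 and 14.6 FPKM to 7.12 and 5.54 FPKM (-1.11, SE 0.23). Paralogues can share reads, and how the counting split them was not tested. Taf5l, a WD40 subunit of SAGA, had 21.7, 15.4 and 23.6 FPKM in OPCs against 7.15 and 11.4 FPKM in OLs (-1.06, SE 0.28). In all 4 genes every OPC sample stood above both OL samples.

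Polr2h, a subunit shared by Pol I, II and III, moved opposite to Polr2l. It had 33.4, 35.3 and 31.6 FPKM in OPCs and 18.9 and 13.8 FPKM in OLs (-1.0, SE 0.23). Med18, a Mediator head subunit that forms a pair with Med20, likewise fell where Med20 rose, from 25.4, 23.1 and 19.4 FPKM to 9.40 and 11.5 FPKM (-1.04, SE 0.23). Med12, the kinase module subunit that activates the Mediator kinase, had 10.6, 11.2 and 12.5 FPKM against 5.52 and 6.37 FPKM (-0.84, SE 0.21). Of 7 TFIIIA and TFIIIC genes of the Pol III machinery, 3 were called lower in OLs and none higher (15.8% of all genes were lower and 13.8% higher). Gtf3c3 of TFIIIC stood higher in both OL samples than in any OPC sample, without passing (0.61, limma adjusted p = 0.14). With the replicate number as a block Gtf3a passed and the other called genes of this class, Gtf3c2 and Gtf3c5, did not. Gtf3a, the zinc-finger factor of 5S rRNA genes, had 46.1, 39.4 and 29.5 FPKM in OPCs and 23.6 and 16.1 FPKM in OLs (-0.92, SE 0.28). Gtf3c2 and Gtf3c5, which belong to the TFIIIC subcomplexes that bind the B and A boxes of tRNA genes, fell by 0.85 (SE 0.21) and 0.74 (SE 0.22) on the log2 scale. Their levels were 35.9, 30.9 and 33.9 FPKM against 19.4 and 16.9 FPKM for Gtf3c2, and 14.6, 17.2 and 19.0 FPKM against 9.69 and 9.69 FPKM for Gtf3c5. The adjusted p of the 10 genes lay between 0.010 and 0.039.

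**Figure D1:**
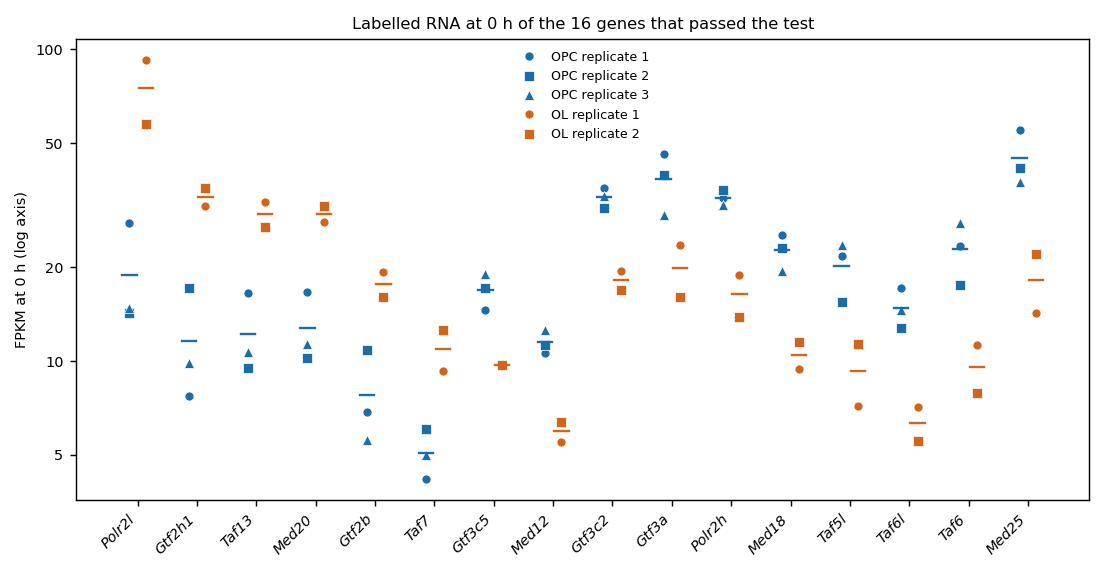
Level at 0 h (FPKM, log axis) of the 16 genes that passed the limma test, 1 point per replicate and a bar at each mean, OPCs (n = 3) and OLs (n = 2). In each gene the OL points lie on 1 side of all OPC points, with Polr2l reaching 92.1 FPKM in an OL sample against at most 27.7 FPKM in OPCs.

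The number of calls varied with the libraries used. Without OPC replicate 1 or 2 the test called 16 members each, 15 and 14 of them among the 16 (30.4% and 31.9% of all genes). Without OL replicate 1 the test called 3 members (Polr2h, Taf6 and Taf6l, with 896 of all 8177 genes called), without OL replicate 2 it called 4 (Med18, Med25, Polr2l and Taf5l, with 14.4%) and without OPC replicate 3 it called 5 (Gtf2h1, Med18, Med25, Polr2l and Taf6l, with 15.4%). Where an OL replicate is left out, the lone OL sample is assumed to vary like the OPCs. All 16 genes kept their direction under each omission, and their median absolute change stayed between 1.00 and 1.14 (1.08 with all 5 replicates).

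None of the 7 subunits particular to Pol II passed the test at 0 h, and none of the 9 subunits particular to Pol III did, where 29.6% of all genes passed in either direction. The log2 change of the 7 Pol II subunits ran from -0.35, that of Polr2a (adjusted p = 0.24), to 0.05. The 9 Pol III subunits ran from -0.62 to 0.18. Polr3c, a subunit of the initiation subcomplex of Pol III, was at the lower end with 16.8, 11.7 and 11.6 FPKM in OPCs and 5.90 and 11.4 FPKM in OLs (adjusted p = 0.16). Polr3a changed by 0.18 (SE 0.31), Polr3b by -0.12 (SE 0.28) and Polr3k by -0.32 (SE 0.31), each less than its standard error or close to it. At an unadjusted p under 0.05 the limma test would have called 23 of the 79 members and 3507 of all 8177 genes.

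**Figure D2:**
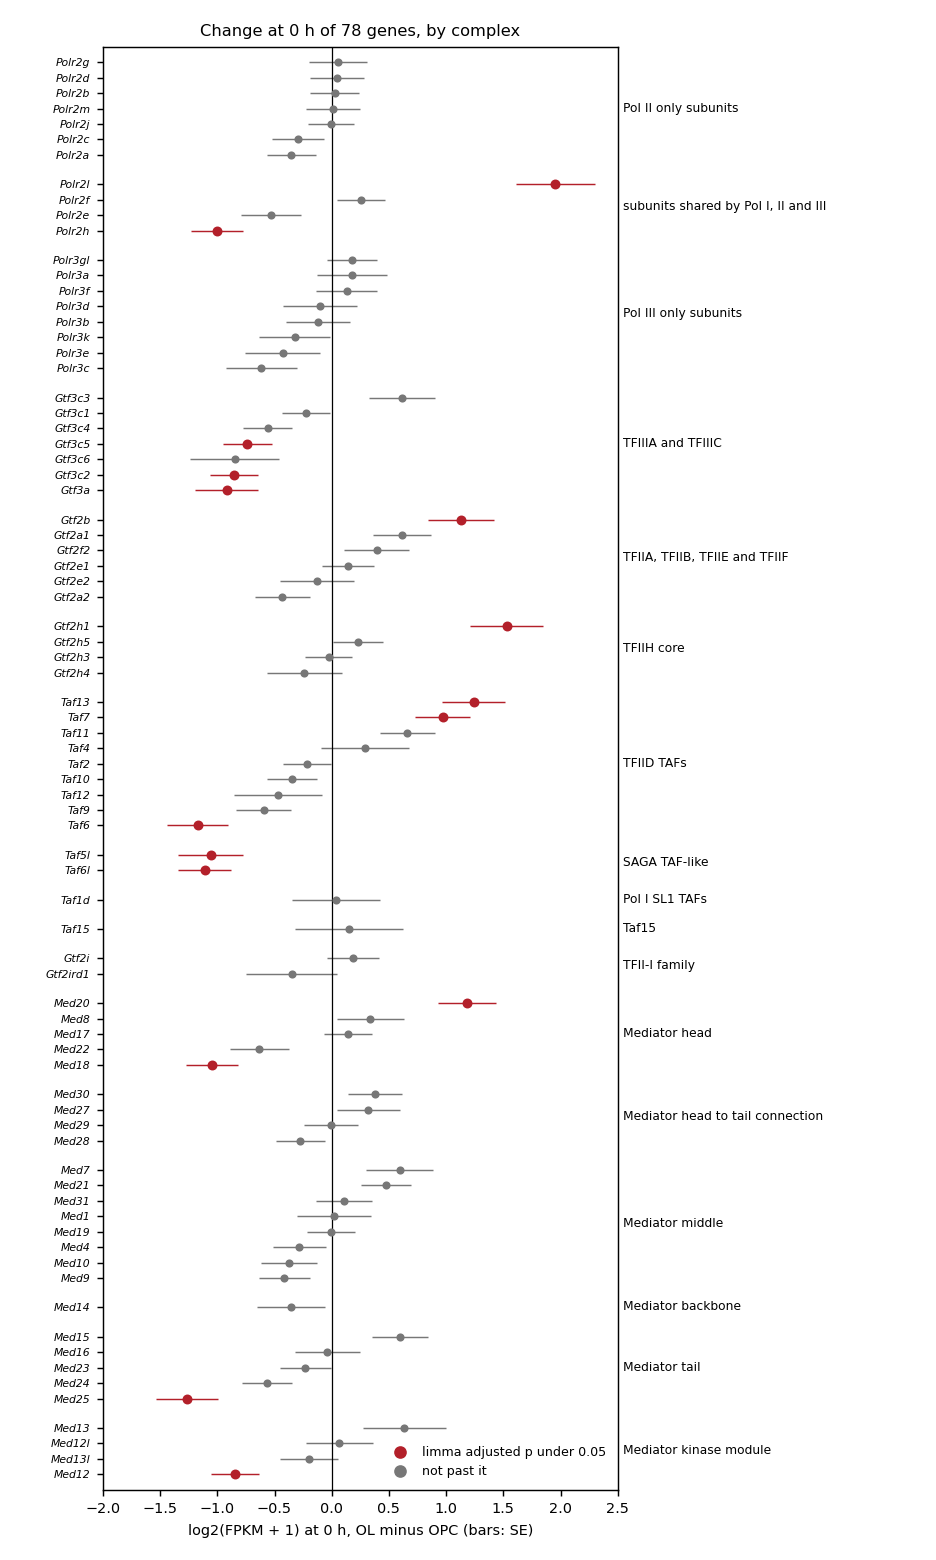
Change in log2(FPKM + 1) at 0 h, OL (n = 2) minus OPC (n = 3), for 78 genes listed in both cell types, grouped by complex, with bars for the standard error and red points for genes past the limma test. Subunits particular to Pol II or Pol III lie between -0.62 and 0.18 with none in red, and Polr2l (1.96) and Med25 (-1.26) are the extremes.

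Several members have a close paralogue. Polr3g and Polr3gl encode alternative subunits of Pol III, the former known from stem cells and tumour lines. Polr3g was listed in OLs only, at 2.92 and 2.34 FPKM, and Polr3gl stood at 2.92, 2.19 and 3.11 FPKM in OPCs and at 3.13 and 3.28 FPKM in OLs. Med13, which links the kinase module to core Mediator, had 15.6, 37.5 and 30.7 FPKM in OPCs and 36.6 and 46.6 FPKM in OLs, and Med13l had 14.2, 19.0 and 19.4 FPKM against 12.6 and 17.8 FPKM. Med12l, the paralogue of Med12, had 4.49, 9.47 and 6.89 FPKM in OPCs and 7.13 and 6.97 FPKM in OLs (log2 change 0.07, adjusted p = 0.88). Taf9, a histone-fold protein of TFIID and SAGA, had 55.3, 37.0 and 42.2 FPKM in OPCs and 28.7 and 29.1 FPKM in OLs (-0.60, adjusted p = 0.096), and Taf9b was listed in OLs only, at 11.1 and 3.99 FPKM. Gtf2i was at 76.9 to 104 FPKM in OPCs and at 111 and 97.7 FPKM in OLs, while Gtf2ird1 lay at or under 4.56 FPKM in every sample and Gtf2ird2 was listed in OLs only, at 1.76 and 1.62 FPKM. No paralogue pair but Taf6 and Taf6l had both members past the test.

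Of the 10 members listed in OLs only, Gtf2f1, the large subunit of TFIIF, was highest in 1 sample with 5.60 and 20.5 FPKM in OL replicates 1 and 2. Med11, a Mediator head subunit, had 10.9 and 9.43 FPKM, and Taf8, a histone-fold TAF, had 9.98 and 8.23 FPKM. Med26, which recruits elongation factors to Mediator, had 5.15 and 5.29 FPKM. Taf1b, Taf1c and Taf3 lay between 1.99 and 5.33 FPKM. The only member listed in OPCs alone was Polr2i, a Pol II subunit of the jaw, at 32.7, 20.7 and 29.4 FPKM. The lowest 0 h value listed anywhere was 1.00 FPKM in either cell type, so absence from a list does not mean absence of the mRNA, and these 11 genes entered no test.

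Partners of the members, taken from lists of factors whose symbols the rule does not cover, were read off the same fit at 0 h. The Mediator kinase has 2 alternative catalytic subunits, Cdk8 and Cdk19, which moved in opposite directions. Cdk19 had 5.97, 11.3 and 7.44 FPKM in OPCs and 64.1 and 47.4 FPKM in OLs (log2 change 2.64, limma adjusted p = 0.00063). Cdk8 had 19.3, 26.4 and 22.3 FPKM in OPCs and 13.6 and 11.1 FPKM in OLs (-0.82, adjusted p = 0.031). The groups did not overlap for either kinase. Of 12 listed Pol III factors outside the rule, the shared subunit gene Polr1c, which belongs to Pol I and Pol III, was lower in OLs (-0.74, adjusted p = 0.041) and Crcp, a Pol III stalk subunit, was higher (0.71, adjusted p = 0.034). None of the 5 TFIIH partners passed in either direction. Of 21 listed pausing, elongation and C-terminal domain factors, 4 were lower in OLs, where 15.8% of all genes were, and none higher: Nelfe and Nelfcd of the pausing factor NELF (-1.13 and -0.93), Ssrp1 of the histone chaperone FACT (-0.88) and Gpn1, which acts in Pol II import (-0.82).

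RNA decay was read from the chase in 2 ways. The first is the half-life as deposited, from a single exponential fitted per replicate to the spike-in scaled levels and held at a ceiling of 6 h. The median half-life of the 79 members was 2.03, 1.96 and 2.30 h in OPC replicates 1 to 3 and 3.27 and 4.14 h in OL replicates 1 and 2. In each replicate this lay below the median of all transcripts, which was 2.35, 2.08 and 2.83 h in OPCs and 4.54 and 4.44 h in OLs. The 1.96 h of OPC replicate 2 is itself a repeated value of the fit, described below, at which 28 members stood. Fewer members than transcripts at large were at the ceiling, 16.5%, 15.2% and 20.3% against 24.5%, 25.3% and 31.6% in OPCs, and 31.6% and 34.2% against 42.3% and 38.8% in OLs.

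Members differed widely among themselves in half-life. In all 5 replicates 7 members were at the ceiling, namely the shared subunits Polr2f and Polr2l, the TFIIH subunit Gtf2h5, the Mediator genes Med25 and Med30, Taf10 and Taf15. At the other end 22 members were under 3 h in every replicate, among them Gtf2b, Gtf2a1 of TFIIA, Gtf2h1, Med1, which binds nuclear receptors, Med13, Taf4, Taf7 and the Pol III subunits Polr3d, Polr3e and Polr3f. The lowest mean half-life in OPCs was that of Med18, with 0.387, 0.760 and 0.967 h in OPCs and 1.18 and 1.32 h in OLs. Med18 stayed below 1.5 h in every replicate in which Polr2l stood at 6 h.

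The log2 half-life was higher in OLs for 63 of the 79 members, with a median change of 0.57 (all 8112 transcripts tested: 0.37), but after each replicate was rescaled to a mean decay curve both medians were 0.00. In the limma test 2 members passed at an adjusted p under 0.05, both higher in OLs, which is 2.53% of the members against 3.39% of all transcripts. None passed in the other direction (0.148% of all transcripts), and at an unadjusted p under 0.05 there were 15 higher and 1 lower. The ranges did not overlap for 37 members longer in OLs (35.9% of all transcripts) and for 1 shorter in OLs (2.01%), the TFIIH subunit Gtf2h4.

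Polr2e, a subunit shared by Pol I, II and III (chromosome 10, 80035949 to 80039795, minus strand, GRCm38), had half-lives of 3.81, 3.95 and 3.85 h in OPCs and was at the ceiling of 6 h in both OL samples (log2 change 0.63, SE 0.02, limma adjusted p = 0.0084). Because the ceiling fixes the OL values, the spread in OLs and the true size of the change are unknown, and after rescaling to a mean decay curve the change was -0.12. Gtf2h3, the p34 subunit of TFIIH (chromosome 5, 124579140 to 124597680, plus strand), had 2.21, 2.09 and 1.86 h in OPCs and 4.35 and 3.97 h in OLs (1.02, SE 0.10, adjusted p = 0.041). After the same rescaling the change of Gtf2h3 was 0.10 (adjusted p = 1.0). Neither gene passed the separate test of decay slopes given below (adjusted p = 0.21 and 0.28). Polr2e was called under each omission of a replicate, Gtf2h3 under none of them. With the replicate number as a block neither passed (0.63, limma adjusted p = 0.16 for Polr2e and 0.95, adjusted p = 0.15 for Gtf2h3), though the changes were of like size, nor without the 6 h libraries (limma adjusted p = 0.36 and 0.73).

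Larger differences in half-life without overlap did not pass the test, and are given as values. Polr3a (chromosome 14, 24448696 to 24487052, minus strand) had 0.756, 1.96 and 0.787 h in OPC replicates 1 to 3 and 5.58 and 6.00 h in OL replicates 1 and 2 (log2 change 2.46, SE 0.54, limma adjusted p = 0.11). Taf6l had 1.32, 1.96 and 1.33 h against 5.63 and 5.93 h (1.94, SE 0.23, adjusted p = 0.052). Both genes were called when OPC replicate 2 was left out. Med22 of the Mediator head had 0.725, 1.96 and 1.05 h against 4.58 and 3.82 h (1.87), and Med20 had 0.507, 1.84 and 0.945 h against 2.29 and 3.33 h (1.52). Med13l had 1.35, 1.96 and 1.96 h against 5.66 and 3.88 h (1.44). Polr3d, which pairs with Polr3e in Pol III, had 1.01, 1.50 and 0.563 h against 2.29 and 2.83 h (1.43). In OPC replicate 2 the values of Polr3a, Taf6l, Med22 and Med13l are the same to the digits shown.

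That repeated value belongs to the fit and not to the gene. In a fit that minimises absolute deviations, some half-lives (0.704, 0.760, 1.86 and 1.96 h) can give the smallest summed deviation whatever the later levels are. This holds provided that those levels lie on given sides of the curve. Half-lives within 0.001 h of such a value were found for 4, 29 and 12 members in OPC replicates 1 to 3 and for 3 and 0 members in OL replicates 1 and 2. In OPC replicate 2 this was 36.7% of the members, against 26.9% of all transcripts. Tied values touched 39 of the 79 members, Polr3a, Med22, Med17, Polr2c, Taf6l and Gtf2h3 (in OPC replicate 3) among them, and 40 members, Polr2e among them, had none. With only transcripts free of ties tested, Polr2e alone passed among members.

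**Figure D3:**
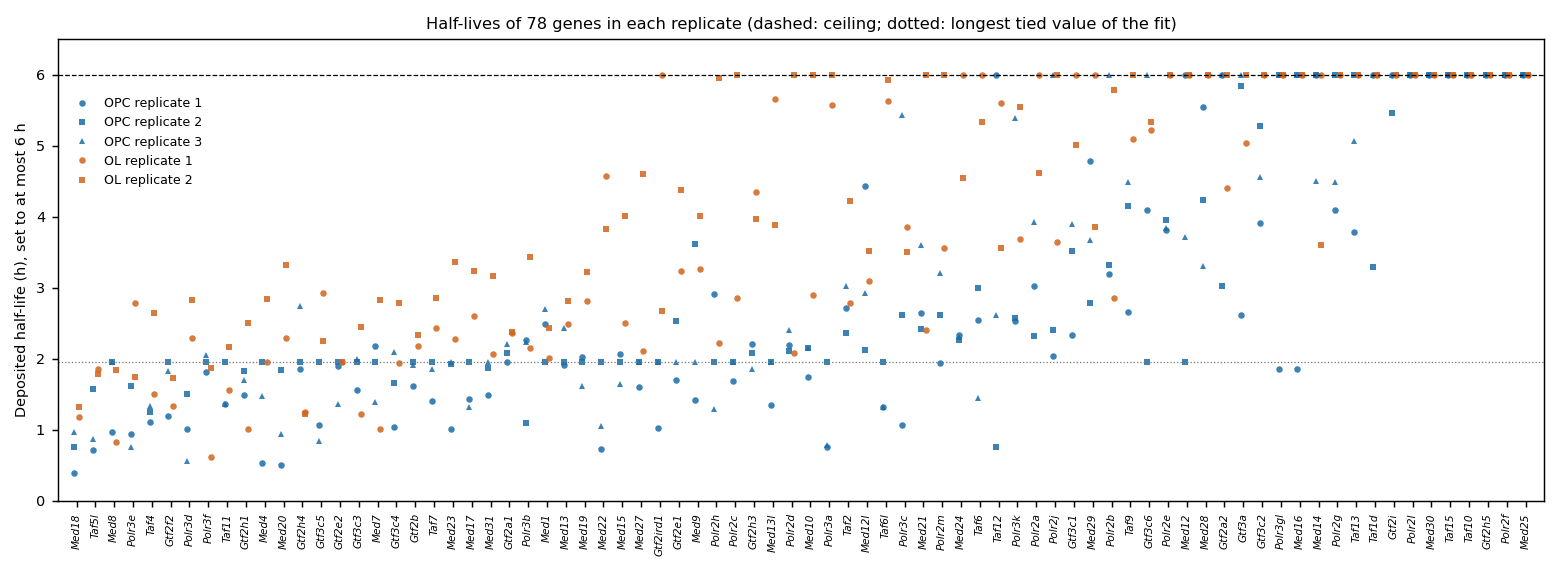
Deposited half-life (h) of 78 genes per replicate for OPCs (n = 3) and OLs (n = 2), with the ceiling at 6 h dashed and the longest repeated value of the fit, 1.96 h, dotted. Polr2e lies between 3.81 and 3.95 h in OPCs and at the ceiling in both OL samples (change of -0.12 after rescaling to a mean decay curve). Polr3a goes from at most 1.96 h in OPCs, that repeated value, to at least 5.58 h in OLs, and did not pass the test (limma adjusted p = 0.11).

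The second measure of decay is the slope of log2(FPKM + 1) on hours of chase, 1 slope per replicate, which has no ceiling. It has a floor, because the added 1 FPKM bounds the slope of a gene that reaches 0 by its 0 h level. The median slope of the 79 members was -0.43, -0.60 and -0.44 per h in OPC replicates 1 to 3 and -0.26 and -0.23 per h in OL replicates 1 and 2. All transcripts fell less steeply in every replicate, with medians of -0.32, -0.46 and -0.33 per h in OPCs and -0.19 and -0.20 per h in OLs. At 6 h the median share of the 0 h level left was 9.73%, 7.10% and 13.2% for members in OPCs and 23.4% and 34.2% in OLs. The same share over all transcripts was 14.8%, 11.3% and 18.1% in OPCs and 33.0% and 39.4% in OLs. At 1 h the replicates numbered 2 had lost least in both cell types, with medians over members of 71.9%, 96.3% and 74.5% in OPC replicates 1 to 3 and of 62.1% in the first and 97.1% in the second OL replicate. By 2 h the median was highest in OPC replicate 2 (75.8%, against 47.4% and 68.6%) and lower in OL replicate 2 than in OL replicate 1 (62.5% against 75.3%).

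**Figure D4:**
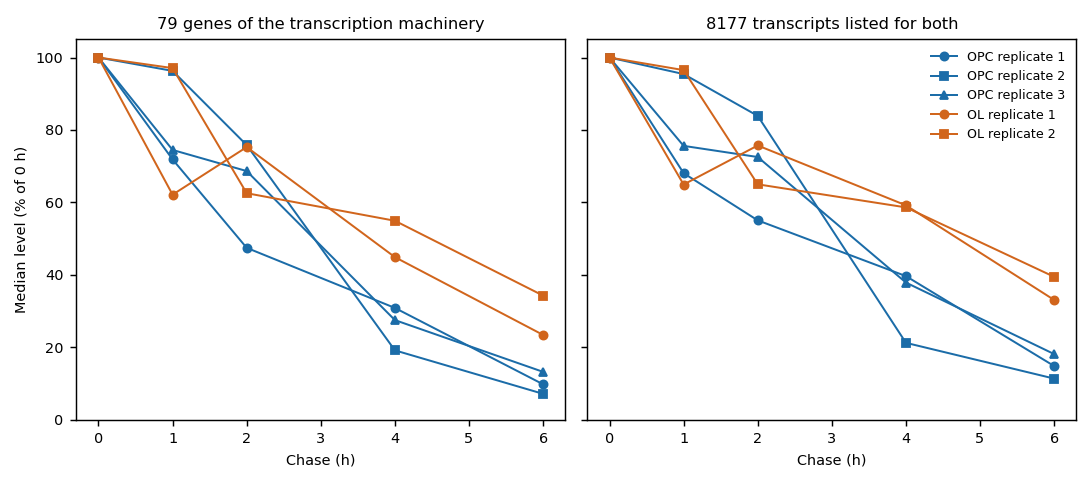
Median share of the 0 h FPKM left (percent) against hours of chase for the 79 members and for all 8177 genes in each OPC (n = 3) and OL (n = 2) replicate. At 6 h members stand at 7.10% to 13.2% in OPCs and at 23.4% and 34.2% in OLs, below all genes in each replicate, and with libraries centred the median slope difference of members is -0.02 per h.

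By limma 20 of the 79 members had a shallower slope in OLs at an adjusted p under 0.05 (25.3%, against 23.7% of all transcripts), and none a steeper one (0.0856% of all transcripts), where no member passed at an unadjusted p under 0.05 either. The median difference was 0.19 per h for members and 0.14 per h for all transcripts, but with each library centred on its median it was -0.02 and -0.07 per h. Slopes of members did not overlap between groups for 47 genes shallower in OLs (50.9% of all transcripts) and for 0 steeper (3.27%). Centring moves every difference by -0.21 per h. With centring 7 members were called, 5 shallower in OLs and all among the 20 (6.33% of members, 2.43% of all transcripts) and 2 steeper in OLs that had not passed before (2.53% of members, 9.93% of all transcripts).

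The 5 genes shallower in OLs with and without centring were Polr2j, Polr2c, Polr2h, Med12 and Taf6l. None of the 5 passed the half-life test, and the half-lives of Polr2j, Polr2h and Med12 overlapped between cell types. Polr2j (chromosome 5, 136116631 to 136122947, plus strand) encodes a Pol II subunit that pairs with Polr2c. Its slopes were -0.81, -0.89 and -0.80 per h in OPC replicates 1 to 3 and -0.18 and -0.09 per h in OL replicates 1 and 2 (difference 0.70, SE 0.08, limma adjusted p = 0.0027). Polr2c had -0.65, -0.85 and -0.80 per h in OPCs and -0.25 and -0.18 per h in OLs (0.54). The OPC slopes of Polr2j rest on levels listed at 0 at 6 h in all 3 OPC replicates. Its half-lives overlapped, at 2.03, 2.40 and 6.00 h in OPCs and 3.64 and 6.00 h in OLs (limma adjusted p = 0.71). Polr2h had -0.82, -0.95 and -0.84 per h against -0.45 and -0.28 per h (0.50), and Taf6l had -0.67, -0.77 and -0.46 per h against -0.10 and -0.21 per h (0.48). Med12 had -0.46, -0.63 and -0.37 per h in OPCs and 0.07 and -0.04 per h in OLs (0.50). At 6 h 118% and 71.9% of its 0 h level were left in OLs, against 3.54%, 1.82% and 13.5% in OPCs. At 2 h the share left was 130% and 62.7% in OLs, against 86.6%, 120% and 93.4% in OPCs. Half-lives of Med12 were 6.00, 1.96 and 3.71 h in OPCs and 6.00 h in both OL samples (limma adjusted p = 0.53). The 2 genes with a steeper fall in OLs after centring were Polr2l and Taf10, a TAF shared by TFIID and SAGA, whose uncentred differences were -0.12 and -0.07 per h. For Polr2l 76.8%, 139% and 191% of the 0 h level were left at 6 h in OPCs and 75.0% and 66.2% in OLs.

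Of the subunits particular to Pol III, Polr3a (0.44) and Polr3c (0.30) passed, and Polr3b (0.16, adjusted p = 0.30) and Polr3k (0.19, adjusted p = 0.092) did not. For Polr3a the share left at 4 h was 2.41%, 0% and 0% in OPCs and 23.9% and 81.2% in OLs, and at 6 h it was listed at 0 in all 3 OPC replicates against 51.2% and 59.9% in OLs. Polr2a was shallower by 0.26 per h (adjusted p = 0.048), with 10.9%, 6.98% and 17.2% left at 6 h in OPCs and 43.1% and 27.0% in OLs. In Mediator 7 of the 27 genes listed in both passed (25.9%, against 23.7% of all transcripts). These were Med17 (0.39), Med20 (0.28) and Med22 (0.51) of the head, Med23 (0.41) and Med24 (0.43) of the tail, and Med12 and Med13l (0.41) of the kinase module, with none of the 8 listed middle subunits. Gtf3c1, the largest TFIIIC subunit, had a difference of 0.42 per h and Gtf3c5 one of 0.36 per h. TFIID gave Taf6 (0.38), Taf11 (0.32) and Taf13 (0.26), and the TFII-I family gave Gtf2ird1 (0.23).

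**Figure D5:**
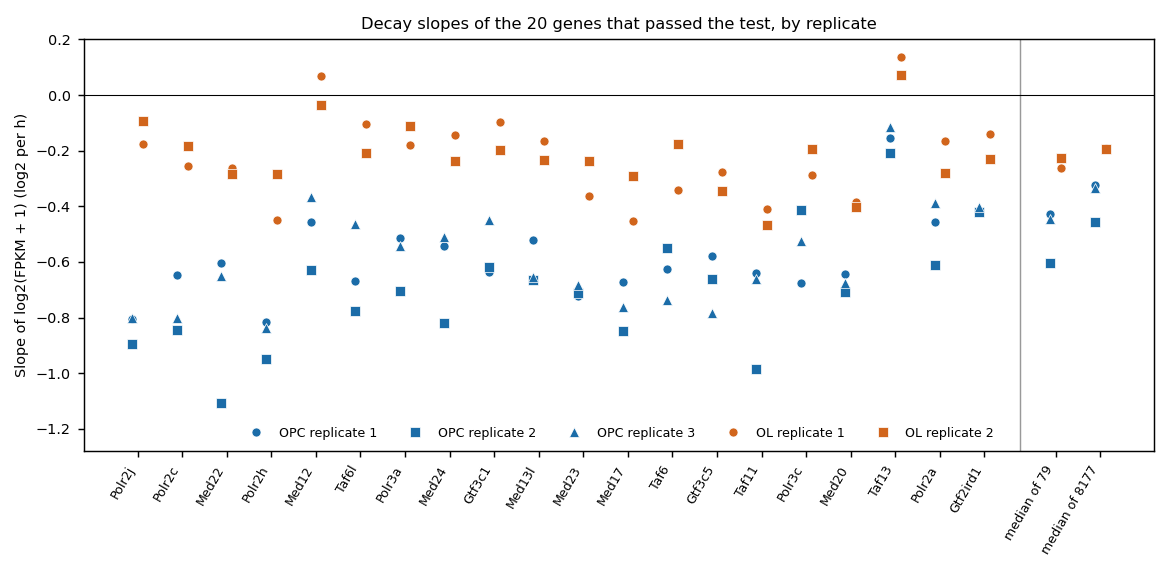
Slope of log2(FPKM + 1) per hour of chase in each OPC (n = 3) and OL (n = 2) replicate for the 20 genes that passed the limma test, beside the medians of the 79 members and of all 8177 genes. In each of the 20 the OL points lie above all OPC points, and centring libraries lowers every difference by 0.21 per h.

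The slope calls changed with the time points and libraries used. At 6 h, 21, 26 and 20 members were listed at 0 in OPC replicates 1 to 3 and 5 and 0 members in OL replicates 1 and 2, and an exact 0 can be a failed estimate. Among the 20 genes called, 15 were at 0 at 6 h in at least 1 OPC replicate, and Polr2j, Polr2h, Polr3a, Med20 and Gtf2ird1 were in all 3. Among the other 59, 22 were at 0 in at least 1. Polr2j at 4 h still had 56.0%, 31.5% and 66.3% of its level in OPCs, against 64.5% and 75.4% in OLs, and over 0, 1 and 2 h alone its difference was -0.23 per h. Without the 6 h libraries 16 members were called (15.2% of all transcripts), 9 of them among the 20. Of the 5 genes called with and without centring Polr2c passed there, and Polr2j (0.14 per h), Polr2h (0.32), Med12 (0.33) and Taf6l (0.48) did not (limma adjusted p = 0.46, 0.20, 0.094 and 0.064). With 0, 1 and 2 h alone limma called 0 members (7 at an unadjusted p under 0.05). With a pseudocount of 0.1 it called 8 (6.96% of all transcripts), 6 of them among the 20. Polr2h and Polr2j were called there, and Polr2c, Med12 and Taf6l were not. Without OL replicate 2 it called 0 members (22 at an unadjusted p under 0.05) and 0 of all 8177 transcripts (2082 at that unadjusted p), and without OL replicate 1 it called 3 (Polr2c, Polr2h and Polr2j, with 1.08% of all transcripts). In both fits the lone OL sample is assumed to vary like the OPCs. The 20 genes all kept their direction there, with a median difference of 0.40 per h without OL replicate 2 and 0.41 per h without OL replicate 1, against 0.41 per h with all replicates.

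Slower decline and 0 h level did not go together in 1 way among the members. Of the genes with a slope call, Med20 and Taf13 were higher in OLs at 0 h, while Polr2h, Med12, Taf6, Taf6l and Gtf3c5 were lower, and the other 13 had no call at 0 h. Polr2l, with the largest rise in level, and Med25, with the largest fall, were both at the half-life ceiling in every replicate and passed no decay test on the deposited scale.

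Slope differences of partners outside the rule ran from -0.16 per h (Cdk19) to 0.68 per h (Polr1c). Of 12 listed Pol III factors, 6 were shallower in OLs (Polr1c, Brf2, Snapc1, Snapc2, Snapc4 and Maf1, the repressor of Pol III), as were Ercc2 and Ercc3, the helicases of TFIIH, and Cdk8. Of 21 pausing and elongation factors, 6 were shallower in OLs. Among all transcripts 23.7% were shallower. With libraries centred, Polr1c and Snapc2 alone stayed called among the 12 Pol III factors and neither helicase nor Cdk8 did, and Cdk19 was steeper in OLs. Of the 21 pausing and elongation factors Supt5, Cdk9 and Nelfe were then shallower and Supt16 was steeper, where 2.43% of all transcripts were shallower and 9.93% steeper. By half-life Supt5, the large subunit of DSIF, rose from 2.39, 1.96 and 2.30 h to the ceiling in both OL samples (log2 change 1.44, limma adjusted p = 0.027). Polr1d, a subunit shared by Pol I and Pol III, went the other way, from 6.00, 5.76 and 6.00 h in OPCs to 3.10 and 2.84 h in OLs (-0.99, adjusted p = 0.016). Rescaled to a mean decay curve, neither passed (0.61, limma adjusted p = 0.12 for Supt5 and -1.15, adjusted p = 0.091 for Polr1d). Under that rescaling Ccnc, the cyclin of the Mediator kinase (-0.97, limma adjusted p = 0.0032), and Ssrp1 (-0.63, adjusted p = 0.012) were called shorter in OLs.

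The study examined the tRNAs of these cells, among them the one that reads the lysine codon AAA, so the lysine codons of the members were counted. In mRNA lysine is written as AAA or AAG. The median share of AAA among lysine codons was 36.8% over 89 members, against 37.5% over 10077 listed genes. Windows of 30 codons are shown for the 2 members with the highest and the 2 with the lowest AAA share, among those listed in both cell types with at least 8 lysine codons, each placed where the gene has most lysine codons. Lysine codons are in capitals and the sequences are GENCODE coding sequence on GRCm38.
Gtf2a1 codons 342 to 371: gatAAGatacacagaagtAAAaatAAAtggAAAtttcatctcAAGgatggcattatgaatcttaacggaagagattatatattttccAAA
Gtf3c3 codons 12 to 41: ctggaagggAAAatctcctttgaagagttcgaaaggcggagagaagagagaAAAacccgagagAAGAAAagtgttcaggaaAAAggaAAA
Polr2c codons 146 to 175: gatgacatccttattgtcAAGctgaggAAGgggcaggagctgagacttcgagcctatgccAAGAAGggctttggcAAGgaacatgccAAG
Polr2e codons 12 to 41: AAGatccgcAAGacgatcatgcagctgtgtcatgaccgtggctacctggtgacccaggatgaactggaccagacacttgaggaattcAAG

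Gtf2a1, which encodes the large TFIIA chain, used AAA for 69.2% of its lysines (9 AAA and 4 AAG) and Gtf3c3 of TFIIIC for 66.7% (34 AAA and 17 AAG). Polr2c and Polr2e used no AAA. Half-lives of Gtf2a1 were 1.96, 2.09 and 2.21 h in OPCs and 2.36 and 2.37 h in OLs, and those of Gtf3c3 were 1.57, 1.96 and 2.00 h and 1.22 and 2.45 h. Polr2c had 1.69, 1.96 and 1.96 h in OPCs and 2.86 and 6.00 h in OLs, and Polr2e was at the ceiling in OLs. The rho of the AAA share with the change in half-life was -0.17 over 78 members and -0.22 over all 8090 transcripts. With the mean half-life in OLs it was -0.31 over the members and -0.21 over all, and with that in OPCs -0.14 and 0.00. These are weak correlations across genes, which share libraries and base composition, and are given as a description. GC content at the third codon position showed a rho of -0.23 with the change in 0 h level, over members and over all genes alike, and one of 0.36 with the change in half-life (0.27 over all).

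Members were also compared with other listed genes in structure. Their coding sequences were shorter, with a median of 994.5 nt against 1398 nt, as were their 3′ untranslated regions, with a median of 634.5 nt against 1095.5 nt. The median GC content at the third codon position was 60.7% for members and 60.6% for all listed genes. The number of ATTTA motifs in the 3′ untranslated region went with the change in 0 h level at a rho of 0.31 over 79 members and of 0.26 over all 8177 genes.

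Promoters of the members were searched for 4 short motifs on both strands, in the 120 bases before each RefSeq start on GRCm38.p6. A RefSeq entry was found for 78 of the 90 members, with 93 starts. The ETS motif CCGGAAG was in 19 of the 93 (20.4%), against 10.7% of 10361 promoters of listed genes and 4.99% of all 32851. TATAAA was in 5.38% (listed genes 2.37%), CCAAT in 22.6% (25.1%) and GGGCGG in 45.2% (50.3%). Starts of 1 gene share sequence, and a match is a description of letters and not of a bound site. The window is shown for the 4 members with the highest mean 0 h level among 7 that hold the ETS motif, have 1 RefSeq start within 50 bases of the listed start and overlap no annotated exon. Gtf3c2 among them was lower in OLs at 0 h and Med17 had a slope call, and all matches to the motifs are in capitals.
Med19 (chr2:84678282-84678401, plus strand): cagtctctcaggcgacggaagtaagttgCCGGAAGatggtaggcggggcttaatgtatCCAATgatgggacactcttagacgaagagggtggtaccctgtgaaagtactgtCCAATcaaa
Gtf3c2 (chr5:31180145-31180264, minus strand): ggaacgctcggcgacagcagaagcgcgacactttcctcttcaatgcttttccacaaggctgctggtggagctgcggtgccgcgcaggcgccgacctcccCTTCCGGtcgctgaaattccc
Med17 (chr9:15279932-15280051, minus strand): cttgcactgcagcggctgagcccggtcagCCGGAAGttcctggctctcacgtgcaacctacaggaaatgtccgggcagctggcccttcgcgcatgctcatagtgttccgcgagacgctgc
Med4 (chr14:73509905-73510024, plus strand): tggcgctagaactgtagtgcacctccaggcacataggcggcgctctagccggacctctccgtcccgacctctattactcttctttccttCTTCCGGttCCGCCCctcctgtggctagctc

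The 4 genes did not move alike. Med19, a Mediator subunit at the hook of the middle module, had 27.4, 29.7 and 33.4 FPKM at 0 h in OPCs and 30.4 and 29.4 FPKM in OLs. Med17, a scaffold of the head, had 18.7, 17.3 and 18.2 FPKM against 18.6 and 21.5 FPKM. Med4, in the middle module, had 17.0, 18.1 and 16.0 FPKM against 11.5 and 16.5 FPKM. None of these 3 genes passed the test at 0 h, and Gtf3c2 fell as given above.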

How the data were processed

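RNA of OPCs and OLs labelled with 5-EU was analysed from the files the authors deposited, 25 libraries in all (15 of OPCs, 10 of OLs). An OPC control pulled down without biotin is not analysed here. The submitters' processing notes name HISAT2 2.1.0, StringTie 1.3.5 and GRCm38. The authors deposited FPKM per transcript and time point, 1 transcript per gene, with the 0 h columns unscaled and later columns scaled to a labelled spike-in. The study's methods describe this scaling for each time point and do not set 0 h apart. The authors also deposited a half-life in hours, fitted per replicate by least absolute deviations of a single exponential and set to 6 h where longer. Read counts, and so the depth per library, are not given in the sources used here, and no counting interval can be stated. Samples were grouped by the title and cell type of the labels.

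Cell types were compared with limma 3.58.1 in R 4.3.3, with Benjamini-Hochberg adjustment over all transcripts tested: log2 half-life (8112 transcripts with a value in all 5 replicates), log2(FPKM + 1) at 0 h (8177 listed in both) and 1 least-squares slope of log2(FPKM + 1) on hours per replicate (8177). An exact permutation test of 3 against 2 samples cannot go below p = 0.1. The code was tested on simulated data. Named genes were all members past adjusted p 0.05, at most 12 per direction by size of change, or, with fewer than 6 calls, the 6 largest changes without overlap. Polr2a, Polr2b, Polr3a, Polr3b, Polr3c, Polr3k, Med12, Med13 and listed paralogue pairs were named whatever their values. Other genes named (the remaining slope calls, members listed in 1 cell type, genes at the half-life ceiling or under 3 h, partners and genes shown by sequence) fall outside that rule and were chosen after their values were seen. The members and all lists were chosen with earlier results of these data known. Alternatives were a replicate block, each replicate left out, other pseudocounts, filters, scalings and time points, and refitted half-lives. Single values of 1 member and of 1 marker gene are not reported here, although the member enters the counts and medians.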

Additional observations from a re-analysis of the deposited data

Results flagged for a closer look

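For 20 members the test of the difference in decay slope between cell types passed (limma on slopes of log2(FPKM + 1) per h, 5 replicates, adjusted p under 0.05 over 8177 transcripts), all with a shallower slope in both OL samples than in the 3 OPC samples. The share was 25.3%, against 23.7% of all transcripts, so that it does not set the members apart. Among Pol II and shared subunits the OL minus OPC difference was 0.70 for Polr2j, 0.54 for Polr2c, 0.50 for Polr2h and 0.26 for Polr2a. In Mediator it was 0.51 for Med22, 0.50 for Med12, 0.43 for Med24, 0.41 for both Med13l and Med23, 0.39 for Med17 and 0.28 for Med20. Among TAF genes it was 0.48 for Taf6l, 0.38 for Taf6, 0.32 for Taf11 and 0.26 for Taf13. In the Pol III machinery it was 0.44 for Polr3a, 0.42 for Gtf3c1, 0.36 for Gtf3c5 and 0.30 for Polr3c, and Gtf2ird1 had 0.23. With each library centred on its median 5 of the 20 stayed called, 2 other members were called steeper in OLs, and the median difference over members went from 0.19 to -0.02 per h. At 6 h, 15 of the 20 were listed at 0 in at least 1 OPC replicate, and over 0, 1 and 2 h alone limma called 0 members (7 at an unadjusted p under 0.05). Without OL replicate 2, where the lone OL sample is assumed to vary like the OPCs, 0 of all 8177 transcripts passed (2082 at an unadjusted p under 0.05, 22 of the 79 members among them). The 20 differences kept their direction there, with a median of 0.40 per h against 0.41 per h.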

How the results depend on the processing

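With the replicate number as a block the members called were 0 for half-life (none of 8112 transcripts passed in limma, and 16 members had an unadjusted p under 0.05), 11 for the 0 h level (23.6% of all genes), all among the 16, and 29 for the slope (28.0% of all transcripts), 19 of them among the 20. The study does not say which numbers pair, and across transcripts the deviations of same-numbered samples from their group means were not correlated beyond weak values (r between -0.03 and 0.06 for number 1 and between -0.11 and 0.01 for number 2), although the 1 h medians left were highest in replicate 2 of both cell types. Leaving out 1 replicate gave 1 to 3 members called for half-life, 3 to 16 for the 0 h level and 0 to 26 for the slope. The same omissions gave half-life changes from -0.13 to 0.40 for Med12l, -0.48 to 0.54 for Polr2b and -0.036 to 1.13 for Polr3c. For the 0 h level they gave -1.08 to 0.38 for Gtf2ird1, -0.18 to 0.29 for Med12l, -0.44 to 0.036 for Med13l, -0.060 to 0.11 for Polr2b, -0.067 to 0.40 for Polr3a, -0.29 to 0.10 for Polr3b and -0.77 to 0.13 for Polr3k.

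For half-lives rescaled to a mean decay curve 1 member was called (Taf1d, shorter in OLs), the median change was 0.00, and the sign turned for Gtf2i (-0.0068), Med12l (-0.66), Med13 (-0.28), Polr2a (-0.37), Polr2b (-1.08), Polr2e (-0.12), Polr3c (-0.29), Polr3k (-0.52), Taf6 (-0.0089) and Taf9 (-0.33). Without the 6 h libraries 0 members were called (5 at an unadjusted p under 0.05 in limma), and the sign turned for Med12l (-0.63), Med13 (-0.30), Polr2b (-0.20) and Polr3k (-0.30). With libraries scaled to 1 median the 0 h change of Polr2b was -0.0078. Slopes gave 8 calls and a median of 0.29 with a pseudocount of 0.1, and 7 calls and a median of -0.020 with centred libraries. Chosen after seeing the data, the half-life test without tied values called 1 member, and slopes over 0, 1 and 2 h called 0 (7 at an unadjusted p under 0.05 in limma), with a median of 0.050 and differences of -0.052 for Med12 and -0.23 for Polr2j. The causes were not tested. With 2 OL samples, unknown depth, a half-life ceiling and levels listed at 0 late in the chase, small differences between cell types were not detectable.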
